A study of Mus musculus with 2 samples.

Results

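The collagens, laminins and other genes of the extracellular matrix were examined in embryonic mouse forebrain. They were taken as the protein-coding genes whose symbol names a collagen or laminin chain, together with Nid1, Nid2, Hspg2, Agrn, Fn1 and Dag1. The rule found 61 of the 21474 protein-coding genes of the deposited gene tables, of which 44 were collagen chains, 11 laminin chains and 6 other matrix or receptor genes. The tissue was whole forebrain of strain B6NCrl embryos at 11.5 days, with no genetic change or treatment named in the labels. Total RNA was sequenced in 2 libraries, of which replicate 1 was a pool of 109 embryos and replicate 2 a pool of 88, both of mixed sex and with spike-in RNAs added. There was 1 group, so levels are described and no conditions are compared. Values are TPM, a transcript abundance scaled by length and depth, as mean ± SD of the libraries (n = 2) where 1 value is given.

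Collagens are trimers whose chains wind into a triple helix, which needs a glycine at the first place of every triplet of amino acids. Fibrillar collagens have 1 long helix and pack into the fibrils of mesenchyme, meninges, bone and cartilage. Type IV collagen has a helix with many breaks and forms, with laminins, nidogens, perlecan and agrin, the basement membrane, a thin sheet under epithelia and around vessels. In the embryonic forebrain such sheets underlie the pial surface, where neuroepithelial cells attach through integrins and dystroglycan, and surround the ingrowing vessels.

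The annotated genes summed to 23165223 expected counts in replicate 1 and 33597022 in replicate 2. The 61 genes held 107188 and 163520 of these, or 0.463% and 0.487%, and 0.146% ± 0.00521 of all TPM. Whole forebrain held more than neural cells. All 10 neuroepithelial markers reached 1 TPM in both libraries, as did all 12 endothelial markers and all 13 markers of head mesenchyme and meninges. So did 6 of 7 pericyte, 8 of 10 surface ectoderm, 3 of 7 cartilage and 2 of 6 skeletal muscle markers. The summed TPM were 2237 and 2245 for neuroepithelium in replicates 1 and 2, 222 and 229.9 for mesenchyme, 237 and 226 for endothelium, 47.2 and 47.7 for pericytes and 51.1 and 51.8 for surface ectoderm. They were 22.4 and 21.1 for cartilage and 14.5 and 11.98 for muscle. Single genes weighed heavily in these sums: Vim gave 1010.51 and 1016.09 TPM of the neuroepithelial and Lum 91.75 and 89.38 TPM of the mesenchymal sum. Whether each marker was confined to the cells of its list was not tested, so the sums do not measure the share of each cell type. In pooled tissue of this kind the level of a gene does not tell many cells with little RNA from few cells with much, and which cells made each transcript was not tested.

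Of the 61 genes, 42 reached 1 TPM in both libraries (68.9%), beside 58.6% of all protein-coding genes. A further 17 stayed under 1 TPM in both, and Col7a1 and Col8a1 reached it in replicate 1 only. At 5 TPM or more in both libraries there were 31 genes, at 20 TPM or more 16, at 50 TPM or more 9 and at 100 TPM or more 4, and those 4 were all fibrillar collagens. The lowest were Col6a5, with 2 and 0 expected counts, and Col28a1, with 0 and 7. A count of 0 allows up to 3 counts in that library, for counting error only.

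**Figure D1:**
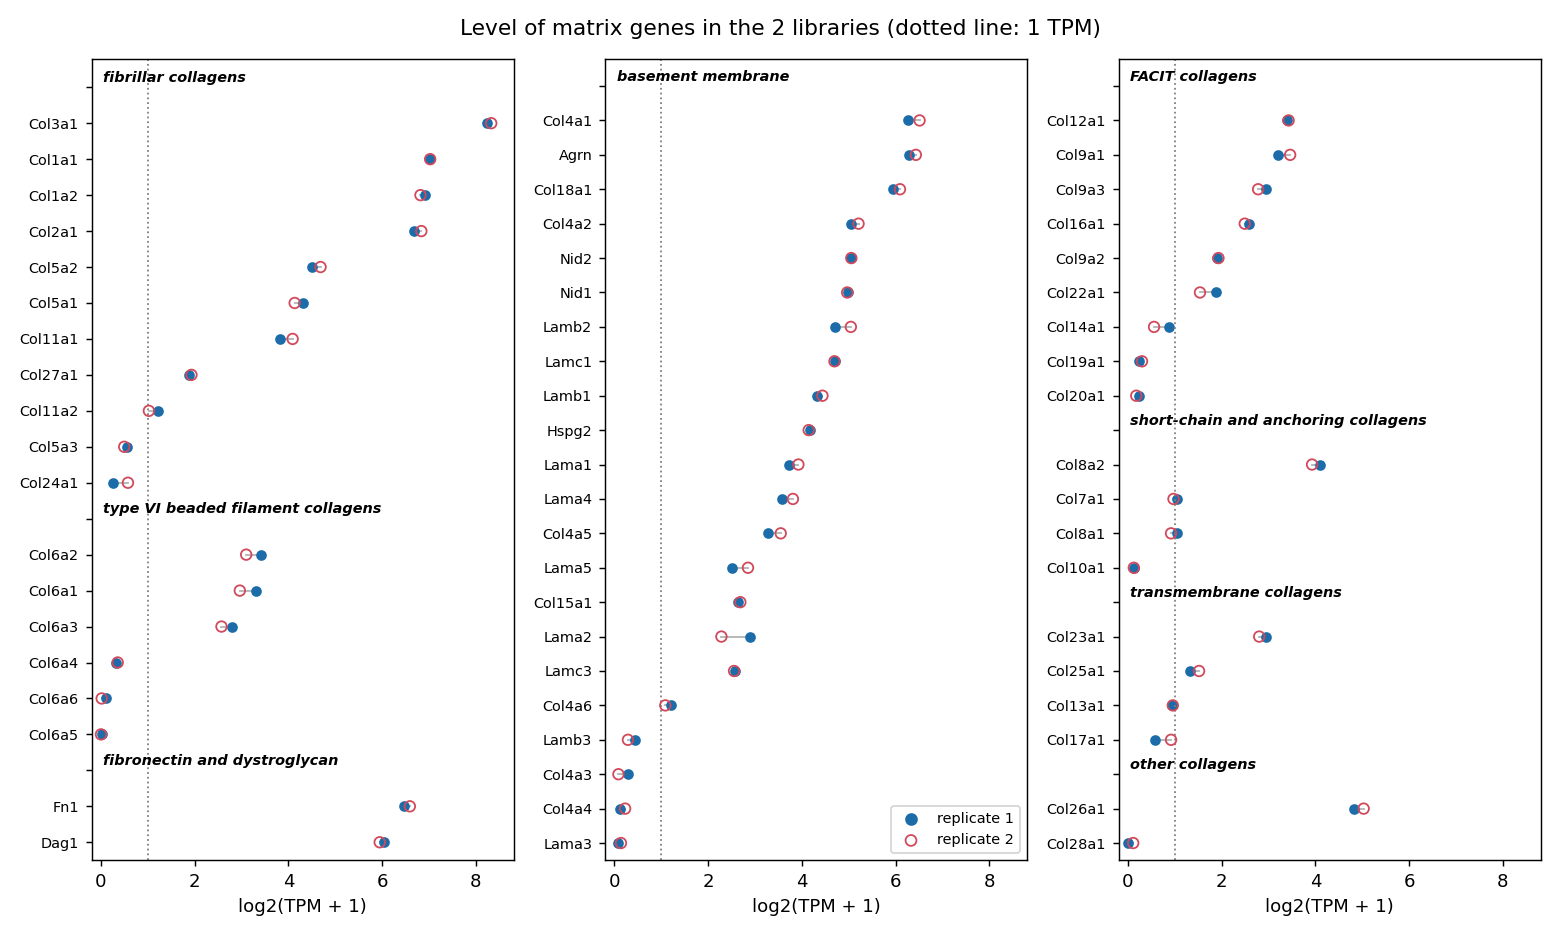
Level of the matrix genes named on the axes as log2(TPM + 1), with replicate 1 as filled and replicate 2 as open points and 1 panel area per group of genes. The dotted line marks 1 TPM. Col3a1 stands highest at 300.01 and 319.68 TPM, the leading basement membrane genes lie between 60 and 91 TPM, and the replicates of most genes lie close together.

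Among the fibrillar collagens 9 of 11 genes were detected. Col3a1, the chain of type III collagen of soft and distensible tissue, was the highest of all 61 genes at 300.01 TPM in replicate 1 and 319.68 TPM in replicate 2, and lay above 98.1% of protein-coding genes by mean TPM (chr1:45311538-45349706, + strand, GRCm38). Col1a1 and Col1a2 encode the chains of type I collagen, the main fibril of skin, bone and meninges. Col1a1 stood at 129.49 and 128.95 TPM and Col1a2 at 120.31 and 111.62 TPM. Type I trimers hold more alpha 1 than alpha 2 chains, and the Col1a1 to Col1a2 ratio of TPM was 1.12 ± 0.0558. Col2a1, the cartilage collagen that early embryonic epithelia and notochord also make, stood at 101.13 and 113.10 TPM. The cartilage markers were lower, and whether cartilage cells made the Col2a1 RNA was not tested. Hapln1, a link protein that is not confined to cartilage, stood at 17.6 and 16.8 TPM, Cnmd at 3.27 and 2.67 and Matn3 at 1.41 and 1.54. Acan, a large proteoglycan of cartilage, had 0.11 and 0.03 TPM and Comp 0.03 and 0.08. Matn4 had 0 and 2 expected counts, and Matn1 had none in either library.

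Types V and XI, minor collagens that start fibrils and limit their width, were lower. Col5a2 had 21.63 and 24.71 TPM, Col5a1 18.72 and 16.53 and Col11a1 13.16 and 16.01. In both libraries Col5a2 exceeded Col5a1, and Col5a1 exceeded Col11a1. Col27a1 had 2.67 and 2.81 TPM and Col11a2 1.32 and 1.03, so that the ratio of Col11a1 to Col11a2 was 12.8 ± 3.94. By protein-coding transcripts alone this ratio was 13.9 ± 0.788. In such transcripts Col27a1 had 0.87 and 0.88 TPM and Col11a2 0.63 and 0.78, all under 1 TPM. Col5a3 at 0.47 and 0.41 TPM and Col24a1 at 0.20 and 0.49 TPM were below the detection level in both libraries.

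The helix is written into these genes. Below are coding exons from the middle of the helix of the 4 most abundant fibrillar chains, shown because each is 54 bases long, and from Col4a1 for comparison. Capitals mark the codons that begin with GG, which encode glycine. They are reference sequence of GRCm38 with GENCODE M21 exons, given 5′ to 3′ on the coding strand.
Col3a1, exon 32 of 51 coding exons, chr1:45337958-45338011, + strand: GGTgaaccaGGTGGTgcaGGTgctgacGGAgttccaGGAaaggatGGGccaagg
Col1a1, exon 34 of 51, chr11:94946574-94946627, + strand: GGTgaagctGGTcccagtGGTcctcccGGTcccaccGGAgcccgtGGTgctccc
Col1a2, exon 34 of 52, chr6:4530172-4530225, + strand: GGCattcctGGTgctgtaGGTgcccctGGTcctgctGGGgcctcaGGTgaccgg
Col2a1, exon 35 of 54, chr15:97983961-97984014, - strand: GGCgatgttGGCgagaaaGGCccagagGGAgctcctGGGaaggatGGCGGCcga
Col4a1, exon 32 of 52, chr8:11220209-11220376, - strand: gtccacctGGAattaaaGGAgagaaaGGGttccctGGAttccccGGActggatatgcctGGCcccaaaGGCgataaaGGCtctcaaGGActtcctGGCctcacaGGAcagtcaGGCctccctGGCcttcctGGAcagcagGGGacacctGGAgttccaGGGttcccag
In the 4 fibrillar exons every unit of 9 bases opened with a glycine codon, with further ones inside a unit in Col3a1 and Col2a1. The Col4a1 exon was 168 bases long, began 1 base into a codon, and held 17 glycine codons of which 15 of the steps between neighbours were 9 bases and 1 was 15 bases.

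Over the 11 fibrillar genes, 305 of 627 internal coding exons (48.6%) were 54 bases long and 526 (83.9%) had a length divisible by 9. For the 6 type IV genes these were 12 of 284 (4.23%) and 134 (47.2%), for laminins 0 of 464 and 72 (15.5%), and over all protein-coding genes 0.733% and 14.3%. The 9 fibril-associated collagens with interrupted helices had 109 of 414 (26.3%) and 228 (55.1%). The 4 membrane-spanning collagens had 14 of 150 (9.33%) and 106 (70.7%). Exons of 54 bases made up 46.7% in Col9a2 and Col9a3, beside 42.9% in Col1a1, so this trait was not particular to fibrillar genes. The longest unbroken run of 9-base units that open with GGN, where N is any base, had 337 to 344 units in 9 fibrillar genes. Col24a1 with 216 and Col27a1 with 217 units had shorter runs, and neither gene exceeded 3 TPM. Col5a3 with 337 and Col11a2 with 338 units did not exceed 3 TPM either. In the type IV genes the longest run had 39 to 66 units, and the coding sequence was cut into 22 to 27 runs of 5 units or more, against 2 or 3 runs in the fibrillar genes.

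**Figure D2:**
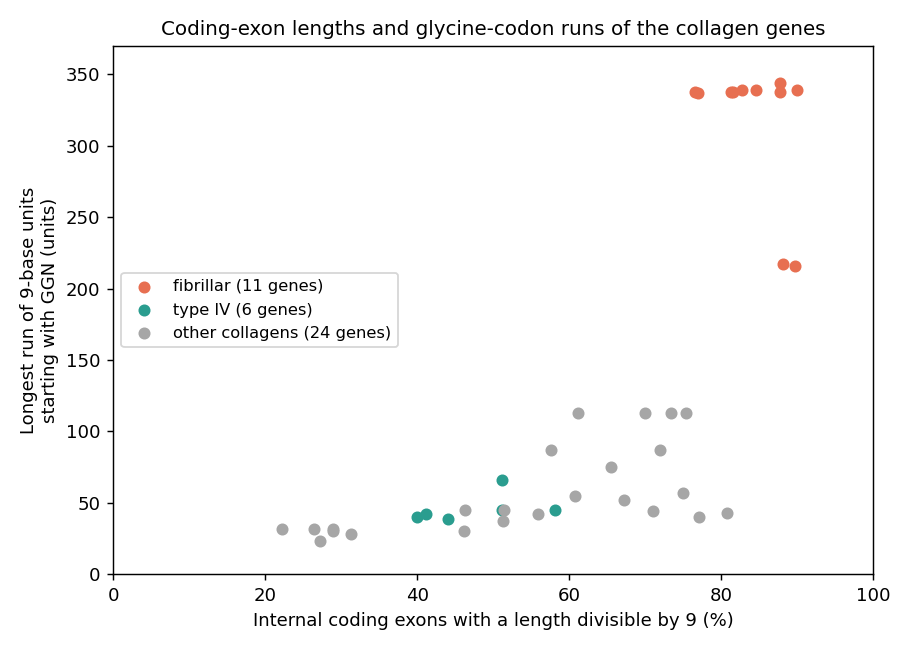
Each point is 1 of 41 collagen genes with internal coding exons: the x axis gives the percentage of these exons whose length is divisible by 9, the y axis the longest run of 9-base units that open with a GGN codon. The 11 fibrillar genes have runs of 216 to 344 units and stand apart from type IV (39 to 66) and the other collagens (at most 113). The other 3 collagen genes have no internal coding exon.

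Of the 23 basement membrane genes 18 were detected. Type IV collagen, the network-forming collagen of the sheet, was led by Col4a1 with 76.01 TPM in replicate 1 and 90.05 in replicate 2 (chr8:11198423-11312826, - strand). Col4a2, its partner in the trimer found in most tissues, had 31.94 and 35.92 TPM, a Col4a1 to Col4a2 ratio of 2.44 ± 0.0899. Both libraries gave more Col4a1 than Col4a2. Col4a5 had 8.75 and 10.68 TPM and Col4a6 1.30 and 1.12. Col4a3 and Col4a4, which join Col4a5 in the kidney glomerulus, had 0.22 and 0.06 and 0.09 and 0.17 TPM and were not detected.

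The glycoproteins and proteoglycans of the sheet spanned a wide range of levels. Agrn encodes agrin, a heparan sulfate proteoglycan that binds dystroglycan, and stood at 76.37 and 85.16 TPM. Col18a1, which carries heparan sulfate and the precursor of endostatin, stood at 60.24 and 67.14 TPM. Nid1 and Nid2, the nidogens that bridge laminin and type IV collagen, were close, at 30.42 and 30.22 and 31.85 and 32.18 TPM, with a Nid1 to Nid2 ratio of 0.947 ± 0.0113. Hspg2, or perlecan, had 16.88 and 16.67 TPM, and Col15a1, a relative of Col18a1, 5.19 and 5.43.

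Laminins are trimers of an alpha, a beta and a gamma chain, of which the alpha chain decides most of the receptor binding. The gamma chain Lamc1, shared by most laminins, stood at 24.91 and 24.86 TPM. The beta chains Lamb2, at 25.11 and 31.95, and Lamb1, at 19.04 and 20.65, were on the same scale, with a Lamb2 to Lamb1 ratio of 1.43 ± 0.162. Each alpha chain was lower than Lamc1 by gene TPM, which the ratios below use. Of the Lamc1 TPM, 45.3% and 42.3% lay in a transcript of 1447 bases with 310 coding bases. The Lamc1 transcript of 7622 bases had 13.4 and 13.93 TPM in replicates 1 and 2. Beside that transcript Lama1 was lower in replicate 1 and higher in replicate 2, and the other alpha chains were lower in both. Lama1, the main alpha chain of early embryonic epithelia, had 12.12 and 14.17 TPM and a ratio to Lamc1 of 0.528 ± 0.0590. Lama4, the alpha chain of vessel walls, had 10.97 and 12.99 TPM and a ratio of 0.481 ± 0.0581. Lama1 was the higher of these in each library. Lama5 had 4.65 and 6.20 TPM, of which 1.46 and 1.85 lay in protein-coding transcripts, and Lamc3 had 4.95 and 4.86. Lama2, the chain of muscle and pial laminin, had 6.38 and 3.86. Lama3 and Lamb3, chains of skin laminin, had 0.06 and 0.10 and 0.35 and 0.22 TPM and were not detected. The 5 alpha chains summed to 34.2 and 37.3 TPM.

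The fibrillar collagens were set against the basement membrane genes, as 11 genes against 23. They summed to 709.1 and 735.3 TPM in replicates 1 and 2, and the basement membrane genes to 448.2 and 495.1 TPM. The fibrillar sum was 1.58 and 1.49 times the other, a ratio of 1.53 ± 0.0685, so both libraries gave the same order. Few genes carried the fibrillar sum. The 4 highest fibrillar genes held 91.7% ± 0.160 of their group's TPM, and the 4 highest basement membrane genes 55.4% ± 1.16. Without the highest gene of each group, Col3a1 and Col4a1, the ratio was 1.06 ± 0.0516. The median log2(TPM + 1) was 4.22 ± 0.12 for fibrillar and 3.69 ± 0.16 for basement membrane genes, beside 2.30 for all protein-coding genes, and the fibrillar median exceeded the other by 0.72 and 0.33. These genes are not replicates, so no p-value was given. By expected counts, which are not scaled by length, the ratio was 1.33.

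**Figure D3:**
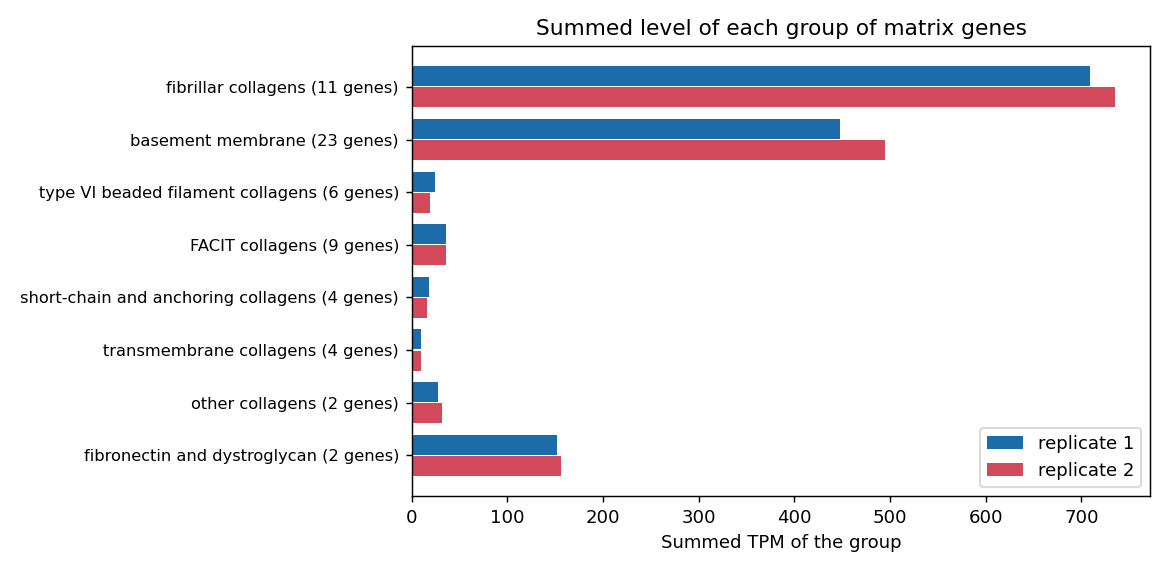
Summed TPM of each group of matrix genes in replicate 1 and replicate 2, with the number of genes in brackets. The fibrillar bars reach 709.1 and 735.3 TPM, the basement membrane bars 448.2 and 495.1 TPM and the type VI bars 24.9 and 19.6 TPM.

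Fn1 and Dag1 together held 10.5% of the TPM of the 61 genes. Fn1 encodes fibronectin, which cells assemble into fibrils through integrins, and stood at 87.50 and 95.26 TPM. Dag1 encodes dystroglycan, the laminin and agrin receptor of neuroepithelial endfeet, and stood at 64.41 and 60.64 TPM. Dag1 RNA therefore exceeded that of each laminin chain in both libraries.

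The remaining collagens were led by Col26a1 and Col8a2. Col26a1, a secreted collagen of uncertain function, had 27.48 and 31.61 TPM, and Col8a2, a short-chain collagen of sheet-like matrix, 16.10 and 14.21. The type VI chains, which form beaded filaments, had 9.69 and 7.56 for Col6a2, 8.96 and 6.79 for Col6a1 and 5.93 and 4.94 for Col6a3. The ratio of Col6a1 to Col6a2 was 0.911 ± 0.0188. Col6a4, Col6a5 and Col6a6 stayed below 0.3 TPM. Fibril-associated collagens with interrupted helices decorate other fibrils. Among them Col12a1 had 9.47 and 9.75 TPM, Col9a1 8.22 and 10.00, Col9a3 6.73 and 5.85, and Col9a2 2.72 and 2.81, with Col9a1 3.29 ± 0.379 times Col9a2 and 1.47 ± 0.345 times Col9a3. The membrane-spanning Col23a1 had 6.73 and 5.96.

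Which form of a gene was made could be read only from the division of reads among annotated transcripts, which estimates rather than observes it. The exons below are shown because they are skipped in some forms of Fn1, Col2a1 and Agrn. They are GRCm38 sequence on the coding strand, all on the - strand of the genome, written in lower case throughout since no base is singled out.
Fn1 EIIIB, 273 bases, chr1:71613763-71614035: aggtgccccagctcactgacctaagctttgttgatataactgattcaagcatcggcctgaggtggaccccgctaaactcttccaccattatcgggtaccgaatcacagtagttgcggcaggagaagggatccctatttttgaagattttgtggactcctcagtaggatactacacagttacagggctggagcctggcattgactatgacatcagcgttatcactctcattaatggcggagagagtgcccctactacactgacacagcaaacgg
Fn1 EIIIA, 270 bases, chr1:71603660-71603929: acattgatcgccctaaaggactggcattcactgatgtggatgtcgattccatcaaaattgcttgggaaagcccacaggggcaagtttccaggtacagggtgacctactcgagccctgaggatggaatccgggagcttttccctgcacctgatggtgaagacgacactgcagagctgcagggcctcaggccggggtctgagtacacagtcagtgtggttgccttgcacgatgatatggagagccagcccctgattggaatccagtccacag
Col2a1 exon 2, 204 bases, chr15:98000403-98000606: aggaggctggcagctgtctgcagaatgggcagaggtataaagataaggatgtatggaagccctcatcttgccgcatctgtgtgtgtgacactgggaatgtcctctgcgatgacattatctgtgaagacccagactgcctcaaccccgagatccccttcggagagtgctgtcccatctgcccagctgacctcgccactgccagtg
Agrn 12-base exon, chr4:156169546-156169557: aaatcccgcaag
Agrn 24-base exon, chr4:156168546-156168569: cgagctgaccaatgagatcccagc
Agrn 33-base exon, chr4:156167777-156167809: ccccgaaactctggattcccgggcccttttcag
EIIIB and EIIIA each encode an extra fibronectin domain that embryonic fibronectin carries and plasma fibronectin lacks. Transcripts with EIIIB held 86.8% and 89.2% of the TPM of protein-coding Fn1 transcripts that span it in replicates 1 and 2, and those with EIIIA 98.4% and 97.1%. Col2a1 exon 2 encodes a cysteine-rich domain kept by the form made in progenitor cells and skipped in mature cartilage. It was held by 67.1% and 60.8% of the spanning TPM. Agrin with short exons of this kind is known from neurons for clustering acetylcholine receptors. The 3 short Agrn exons lie on 1 of 4 spanning transcripts, Agrn-203, which starts downstream at chr4:156185901. None of the 4 joins them to the upstream start of Agrn-206, so such a form could not be measured. Agrn-203 held 8.72% and 16.3% of protein-coding Agrn TPM, a spread of 5.35 percentage points, so its level was not well determined.

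Agrn and Col18a1 each have transcripts from more than 1 start. Agrn-206, which starts at chr4:156197488, had 19.93 and 21.31 TPM, and the 3 protein-coding transcripts that start downstream at chr4:156185901 had 0 to 4.59 TPM each. Col18a1-202, which starts at chr10:77166548 and encodes the short form of type XVIII collagen, held all of the Col18a1 TPM in replicate 1 and 99.8% in replicate 2. The long forms from downstream starts had at most 0.08 TPM.

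Not all TPM of a gene came from transcripts annotated as protein-coding. Of the 31 genes at 5 TPM or more, 19 had at least 90% in such transcripts in both libraries. Agrn, with 31.5% and 33.1%, and Fn1, with 47.2% and 50.3%, had under 60% in both. For Agrn the retained-intron transcript Agrn-205 held 59.2% and 55.6%, and for Fn1 the retained-intron transcript Fn1-202 held 29.2% and 25.4%. Counted in protein-coding transcripts alone, Agrn had 26.1 ± 2.91 TPM and Fn1 44.6 ± 4.64, and the fibrillar to basement membrane ratio was 1.75 ± 0.1003. Short annotated transcripts take a large share of TPM from few counts. Col3a1-205, which is 737 bases long, held 30.1% and 27.5% of Col3a1 TPM but 4.82% and 4.38% of its counts. It is of protein-coding type, so its 90.38 and 87.97 TPM stay in the fibrillar sum behind the ratio of 1.75, while Agrn-205 is left out. Lamc1-204 held 45.3% and 42.3% of Lamc1 TPM but 13.1% and 11.9% of its counts. It is also of protein-coding type, so its TPM stay in the chain ratios to Lamc1 by protein-coding transcripts. Whether the retained-intron RNA was unspliced RNA in the total RNA was not tested.

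**Figure D4:**
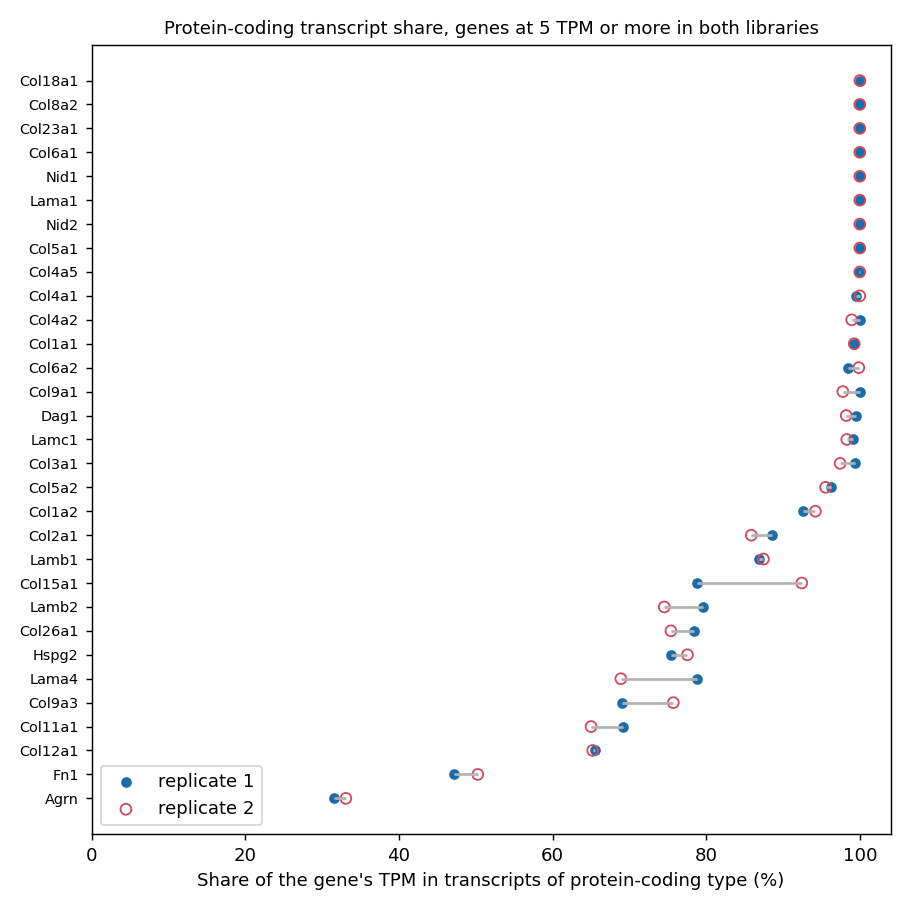
Share of each gene's TPM that lies in transcripts of protein-coding type, in percent, for the 31 genes at 5 TPM or more in both libraries, with replicate 1 as filled and replicate 2 as open points. Agrn (31.5% and 33.1%) and Fn1 (47.2% and 50.3%) are the lowest, and 19 genes lie at 90% or more in both.

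The libraries were then compared for each gene by a two-sided exact binomial test of the counts, Benjamini-Hochberg adjusted over all 18297 genes tested. With 1 library on each side the test compares these pools and covers counting error only. It called 24 of the 59 matrix genes with enough counts, beside 23.4% of all genes. Of the 24, 15 were higher in replicate 2 and 9 in replicate 1, beside 12.6% and 10.9% of all genes. The matrix genes are abundant, and among genes with 1000 or more counts the test called 18 of 30 matrix genes, beside 34.8% of all such genes. The SD of the log2 ratio between libraries was 0.18 for those 30 and 0.14 for all genes of that depth. With a 1.5-fold minimum 3 were called, Col4a3, Col6a6 and Col14a1, beside 4.17% of all genes, and each of these had under 100 counts summed.

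Of the 23 basement membrane genes 10 were called, beside 23.4% of all genes and 34.8% of all genes with 1000 or more counts. Of the 10, 9 were higher in replicate 2 and 1, Col4a3, was higher in replicate 1. Over all genes 2298 of the 4289 called were higher in replicate 2. Col4a1 was higher in replicate 2 by a log2 ratio of 0.25 (1.19-fold, 95% interval 1.16 to 1.23, adjusted p = 5.9e-32). Agrn was higher by 0.21, Col18a1 and Col4a2 by 0.16 each, Lama1 by 0.23, Col4a5 by 0.30, Lamb1 by 0.13, Lama5 by 0.36 and Lama2 by 0.38. Among the fibrillar genes Col3a1 was higher in replicate 2 by 0.10, Col2a1 by 0.12, Col5a2 by 0.19 and Col11a1 by 0.31, and Col1a2 was lower by a log2 ratio of -0.08 and Col5a1 by -0.18. Col1a1 had a log2 ratio of 0.00 (adjusted p = 0.968, exact binomial test), and its ratio of 0.998 had a 95% interval of 0.975 to 1.02. Fn1 was higher in replicate 2 by 0.16 and Col9a1 by 0.26. Over the 21 called genes with 100 or more counts the adjusted p ran from 5.9e-32 to 0.0408. Of the 5 type VI genes tested 3 were called, all higher in replicate 1, beside 10.9% of all genes called in that direction. Col6a1 had a log2 ratio of -0.40 and Col6a2 of -0.36, and the other was Col6a6, which rested on 10 and 2 counts. Among the remaining collagens Col8a2 had a log2 ratio of -0.22 and Col16a1 of -0.35. Of the marker lists, 0 of 4 tested skeletal muscle and 0 of 4 tested cartilage genes were called, beside 23.4% of all genes. The test called 5 of 12 endothelial genes (2 higher in replicate 2 and 3 in replicate 1) and 3 of 10 surface ectoderm genes (2 and 1). It called 5 of 10 neuroepithelial (2 and 3), 3 of 13 mesenchymal (3 and 0) and 3 of 7 pericyte genes (2 and 1). The median log2 ratio over tested genes was -0.26 for the skeletal muscle, -0.20 for the cartilage, -0.11 for the endothelial and -0.04 for the surface ectoderm list. It was -0.03 for the neuroepithelial, 0.07 for the mesenchymal and 0.18 for the pericyte list. The basement membrane genes had 0.13, the fibrillar genes 0.10 and all genes 0.00. The part of the cells of these lists in the library differences was not tested.

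For Lama2 the units went in opposite directions. Its expected counts were 320 and 602, higher in replicate 2 after scaling (adjusted p = 0.00119, exact binomial test), while its TPM were 6.38 and 3.86. The deposited mean transcript length of the gene was 3378 bases in replicate 1 and 7158 in replicate 2. Its protein-coding transcripts had 1.68 and 2.74 TPM, higher in replicate 2 as the counts were. Of the 42 detected genes 5 differed in sign between TPM and counts (Col11a2, Hspg2, Lama2, Lamc1 and Col9a2), and only Lama2 did so by more than 1.2-fold in TPM + 1.

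**Figure D5:**
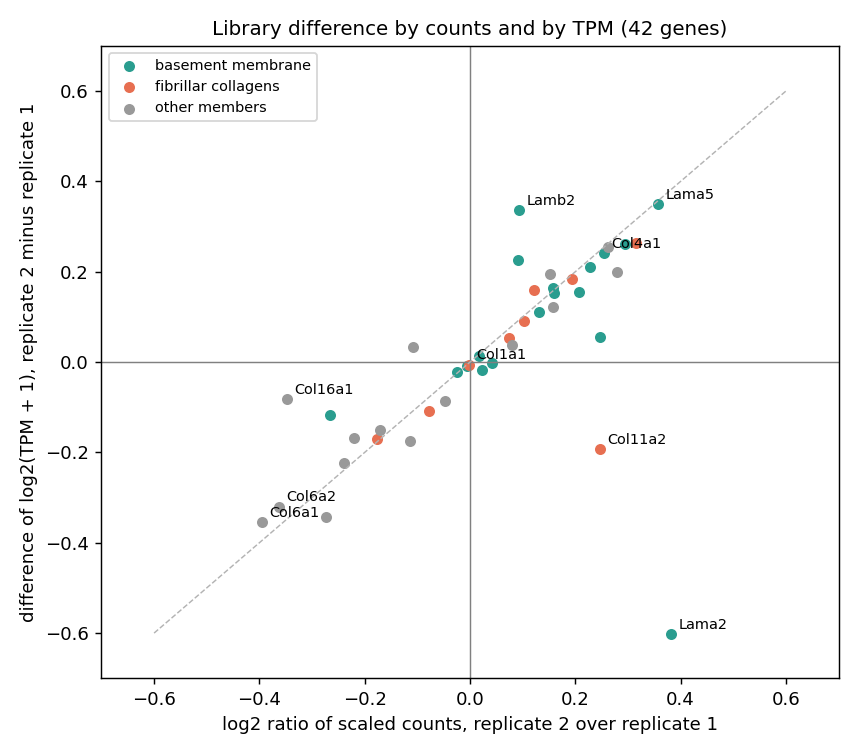
Difference between the libraries of the 42 detected genes, as the log2 ratio of scaled counts (x axis, replicate 2 over replicate 1) and the difference in log2(TPM + 1) (y axis). The dashed line marks equal values. Most points lie near it, and Lama2 lies far below, at 0.38 by counts and with 6.38 and 3.86 TPM.

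The genes that make, bind and remodel these proteins were also measured. All 18 collagen folding and modification genes were detected, led by P4hb, a subunit of the prolyl hydroxylase, at 369 ± 24.3 TPM, Ppib at 298 ± 5.83, Serpinh1, the collagen chaperone, at 182 ± 8.12 and Mia3, which exports large cargo from the endoplasmic reticulum, at 89.7 ± 3.71. Mia3 had 1432 and 2230 counts beside 6233 and 8468 for Serpinh1, so each Mia3 count weighed more in TPM. The part of short transcripts in this was not tested. Between the libraries 9 of the 18 were called, 2 higher in replicate 2 and 7 in replicate 1, beside 12.6% and 10.9% of all genes. Among all genes with 1000 or more counts 34.8% were called in either direction. For processing and crosslinking enzymes 9 of 13 were detected and 5 of 13 called (2 and 3), beside 23.4% of all genes. They were led by Pxdn, the peroxidasin that crosslinks type IV collagen, at 49.4 ± 3.16 and Pcolce, an enhancer of procollagen cleavage, at 43.4 ± 2.35. Bmp1, a procollagen protease, had 20.5 ± 2.15 TPM and Loxl2, a lysyl oxidase, 13.8 ± 1.98.

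Of the matrix receptors 19 of 24 were detected and 8 of 24 called, 6 higher in replicate 2 and 2 in replicate 1, where 23.4% of all genes were called. The same share stands beside the counts of the lists that follow. Itgb1, the common integrin beta subunit, had 117 ± 1.12 TPM, Ddr1, a collagen-binding kinase, 107 ± 8.17, Sdc1 69.7 ± 1.77 and Itga6, a laminin-binding integrin alpha subunit, 46.0 ± 3.66. The 10 genes measured here that build the laminin-binding sugar of dystroglycan were all detected, led by Pomgnt1 at 45.0 ± 2.23, B4gat1 at 33.2 ± 2.77, Rxylt1 at 30.3 ± 2.62 and Pomt1 at 23.4 ± 3.87 TPM, and 4 of 10 were called, 2 in each direction. Turnover genes had 9 of 12 detected, led by the proteases Mmp14 at 53.1 ± 1.73 and Mmp2 at 29.1 ± 3.91, the inhibitor Timp2 at 39.0 ± 1.56 and Mmp11 at 21.8 ± 2.74, with 3 of 11 tested called (1 and 2). Among fibril-associated proteins 11 of 14 were detected and 3 of 14 called (1 and 2). Sparc, a collagen-binding glycoprotein, had 292 ± 30.4 TPM, the fibril proteoglycans Lum 90.6 ± 1.68 and Bgn 24.7 ± 2.57, and Thbs1 49.3 ± 1.21.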

How the data were processed

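Total RNA-seq of 2 libraries, each a separate pool of embryos, was used. Expected counts, which are estimated and need not be whole, TPM and FPKM per gene and transcript were deposited by the authors; posterior mean TPM are in the gene tables, per the file headers. Per the deposited text notes reads were mapped to mm10 with the GENCODE M4 annotation. The sources used here do not give the aligner, quantifier or strand handling. TPM totals include the spike-in entries. Names, types and coordinates came from GENCODE M21 (GRCm38), which matched 42462 of 43346 gene identifiers. The members and lists were chosen with earlier results of these data known. Some items of the lists are not reported here by name.

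Detection was 1 TPM in both libraries. Expected counts were rounded, library sizes scaled by TMM (edgeR 4.0.16, R 4.3.3), and genes with 10 or more counts summed compared by an exact two-sided binomial test (scipy 1.17.1) with Benjamini-Hochberg adjustment at 0.05 and a prior of 0.5 counts in log2 ratios. DESeq2 1.42.0 size factors were an alternative. The test was tried on simulated counts with known changes and counting error only, so that trial does not cover variation between pools. Group sums and medians carry no test, since genes are not replicates. Glycine-codon runs and exon lengths came from GENCODE M21 coding sequence, in place of a planned protein comparison. Named genes were those at 5 TPM or more in both libraries, chains of the ratios and of the fibrillar and laminin lists, called genes with 100 or more counts, and the 4 highest of each companion list; the cartilage markers, Col6a4 to Col6a6, Col28a1, Col4a3, Col4a4, Col7a1, Col8a1 and Col14a1 were named after their values were seen. Of the 61 genes, 54 had whole counts in both libraries (within 0.005), 16 share exon bases with a gene on the opposite strand, and none shares over 10%. Intervals cover counting error only.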

Additional observations from a re-analysis of the deposited data

How the results depend on the processing

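No paired analysis was possible because there was 1 group, and the library test cannot leave out a library. The fibrillar to basement membrane ratio of 1.53 became 1.33 by expected counts, 1.06 without the highest gene of each group and 1.75 by protein-coding transcripts alone, the last chosen after seeing the data; it was 1.49 to 1.58 with either library left out. The difference of medians, 0.52, became 1.32 by expected counts and was 0.33 to 0.72 with either library left out. Detected genes numbered 42 to 44 with either library left out, and 31 to 53 under other thresholds or units. The 24 genes past the library test became 3 with a 1.5-fold minimum and were 23 to 25 under other scalings or filters. Neither the fibrillar to basement membrane ratio nor the difference of medians changed direction under these settings. Among 14 chain ratios, 8 moved beyond the spread by protein-coding transcripts, among them Lama5 to Lamc1 from 0.218 to 0.0674 and Col6a1 to Col6a3 from 1.44 to 2.68, and 2 by posterior mean TPM, among them Col11a1 to Col11a2 from 12.8 to 7.80. Of 44 isoform shares, 30 moved by expected counts. Values of Col6a5 and Col28a1, with under 10 counts summed, are limited by depth.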

Other observations

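Several of these genes lie next to each other. Col4a1 and Col4a2 stand head to head with annotated ends that overlap by 22 bases, and stood at 83.0 ± 9.93 and 33.9 ± 2.81 TPM. Col4a6 and Col4a5, also head to head with 1308 bases between them, stood at 1.21 ± 0.127 and 9.71 ± 1.36 TPM. The head-to-head pair Col4a4 and Col4a3, 71 bases apart, stood at 0.13 ± 0.0566 and 0.14 ± 0.113 TPM. In replicates 1 and 2 Col4a4 had 0.09 and 0.17 TPM and Col4a3 0.22 and 0.06, below detection and in opposite order.

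Other neighbours lie tail to tail or on the same strand. Col3a1 and Col5a2 lie tail to tail 24614 bases apart, at 309.8 ± 13.9 and 23.2 ± 2.18 TPM. Col9a1 and Col19a1 lie tail to tail 9205 bases apart, at 9.11 ± 1.26 and 0.2 ± 0.0424 TPM. Col6a2 and Col6a1, 85161 bases apart on the same strand, had 8.62 ± 1.51 and 7.88 ± 1.53 TPM, and Col6a2 was the higher in each library.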
